A study of Mus musculus with 12 samples.

Results

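The proteasome subunit genes were taken as every gene symbol in both deposited count tables that consists of Psma, Psmb, Psmc or Psmd followed by a number, a rule that uses no measured value. It found 39 of the 25239 gene symbols. By role they comprise 7 alpha and 7 beta genes of the constitutive core, 3 immunoproteasome beta genes, 1 alpha gene of the testis (Psma8), 1 beta gene of the thymus (Psmb11), 6 ATPase genes, 3 non-ATPase genes of the base, 8 of the lid, and 3 Psmd genes that encode assembly chaperones.

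The proteasome is the protease that degrades most ubiquitin-tagged proteins of the cytosol and nucleus. Its core particle is a barrel in which outer rings of alpha subunits gate the entry and inner rings of beta subunits cut the substrate, and its regulatory particle binds ubiquitin chains, removes them and unfolds the substrate with a ring of ATPases. In immune cells, and in other cells under interferon, Psmb8, Psmb9 and Psmb10 take the place of the constitutive catalytic subunits Psmb5, Psmb6 and Psmb7, and in the heart the proteasome takes part in the turnover of sarcomere proteins.

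Total RNA of mouse heart cardiomyocytes, which per the labels' protocols were cultured, was sequenced in 12 libraries that form 4 groups of 3. Ctrl libraries came from mice with floxed Chaf1a alleles (Chaf1a f/f), and Chaf1a cko libraries from Chaf1a f/f mice that also carry Myh6-Cre, a Cre recombinase under a cardiomyocyte promoter, so all groups carry the floxed alleles and the presence of Cre goes together with the genotype. The groups Ctrl 3M and Chaf1a cko 3M have the same genotypes and stand in a table of their own, called the 3M set here, and the other table is called the first set. The labels neither spell out 3M nor give an age, strain or sex, and they name Ctrl libraries WT in the genotype field. They do not state whether libraries of one group stem from different animals or cultures. The p-values thus cover only the spread among the sequenced libraries, and part of it may be technical.

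The libraries of the first set held 15068468 to 20896673 counts each and those of the 3M set 10569325 to 16445963, and the 39 genes took 0.201% to 0.223% and 0.284% to 0.353% of them. The targeted gene, Chaf1a, was no lower under the label Chaf1a cko than under Ctrl, with a log2 fold change of 0.03 (SE 0.18) in the first set and 0.25 (SE 0.61) in the 3M set, so every direction given is that of the labels. Cardiomyocyte markers were above 0 in every library. The first table held counts in nearly all genes. Chemoreceptor genes (1538) are mostly silent in heart cells, yet 94.7% to 97.7% of them had counts in each of its libraries, against 1.24% to 1.69% in each 3M library. Their 95th percentile in the first set, 2.70 CPM per kb of exon (CPM are counts scaled to the size of the library), serves as the background level of that table. The summed level of 4 Y-linked genes was 50.02 to 61.1 CPM in Ctrl, 115 to 133.9 CPM in Chaf1a cko, 393 to 646 CPM in Ctrl 3M and 355 to 394 CPM in Chaf1a cko 3M. In the first set the groups did not overlap in it, so that genotype and the mix of sexes cannot be told apart there. Macrophage markers (9 genes, none at 0) summed to 71.5 to 81.1 CPM in Ctrl, 59.8 to 70.6 CPM in Chaf1a cko, 401 to 493 CPM in Ctrl 3M and 252 to 315 CPM in Chaf1a cko 3M.

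The genes of the constitutive core and the regulatory particle all had means above background in both tables, at levels that differed widely between genes. Levels are compared between genes as CPM per kb of annotated exon, averaged over the 6 libraries of a table, and they are not compared between the tables, which were scaled separately. In the first set the ATPase genes Psmc3 and Psmc1 had the highest levels of the 39, 60.2 and 51.2 CPM per kb. Next in order were the alpha genes Psma4 and Psma6, at 42.7 and 41.5, and the lid gene Psmd7, at 40.7. The lowest constitutive core genes there were Psma1 at 8.92 and Psmb3 at 7.89 CPM per kb, the lowest ATPase gene was Psmc2 at 10.7, and the lowest lid gene was Psmd11 at 6.95. Averaged over the libraries, 6 of the 39 genes were at or below the background level of the first table, namely Psma8, Psmb8, Psmb9, Psmb11, Psmd5 and Psmd9.

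The order was partly different in the 3M set. The catalytic gene Psmb5 was highest there, at 82.5 CPM per kb, followed by the ATPase genes Psmc5 and Psmc3 at 76.7 and 71.1 and by Psma6 at 68.5. Psmb5 holds 899 annotated exon bases, the shortest sum of the 39, and 54.1% of its 50-base words also occur in transcripts of other genes, chiefly Gm3375, so its level depends on how the counting treated shared reads. The lowest core genes were Psma2 at 20.5 and Psmb7 at 21.8 CPM per kb. Psmc2 was again the lowest ATPase gene, at 14.05, and Psmd11 again the lowest lid gene, at 3.43. Neighbours in these orders can lie within each other's spread. In the first set Psma4, for example, was at 40.9 ± 2.50 and 44.6 ± 4.13 CPM per kb in Ctrl and Chaf1a cko, and Psma6 at 37.9 ± 1.65 and 45.2 ± 4.67 (mean ± SD, n = 3 each).

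**Figure D1:**
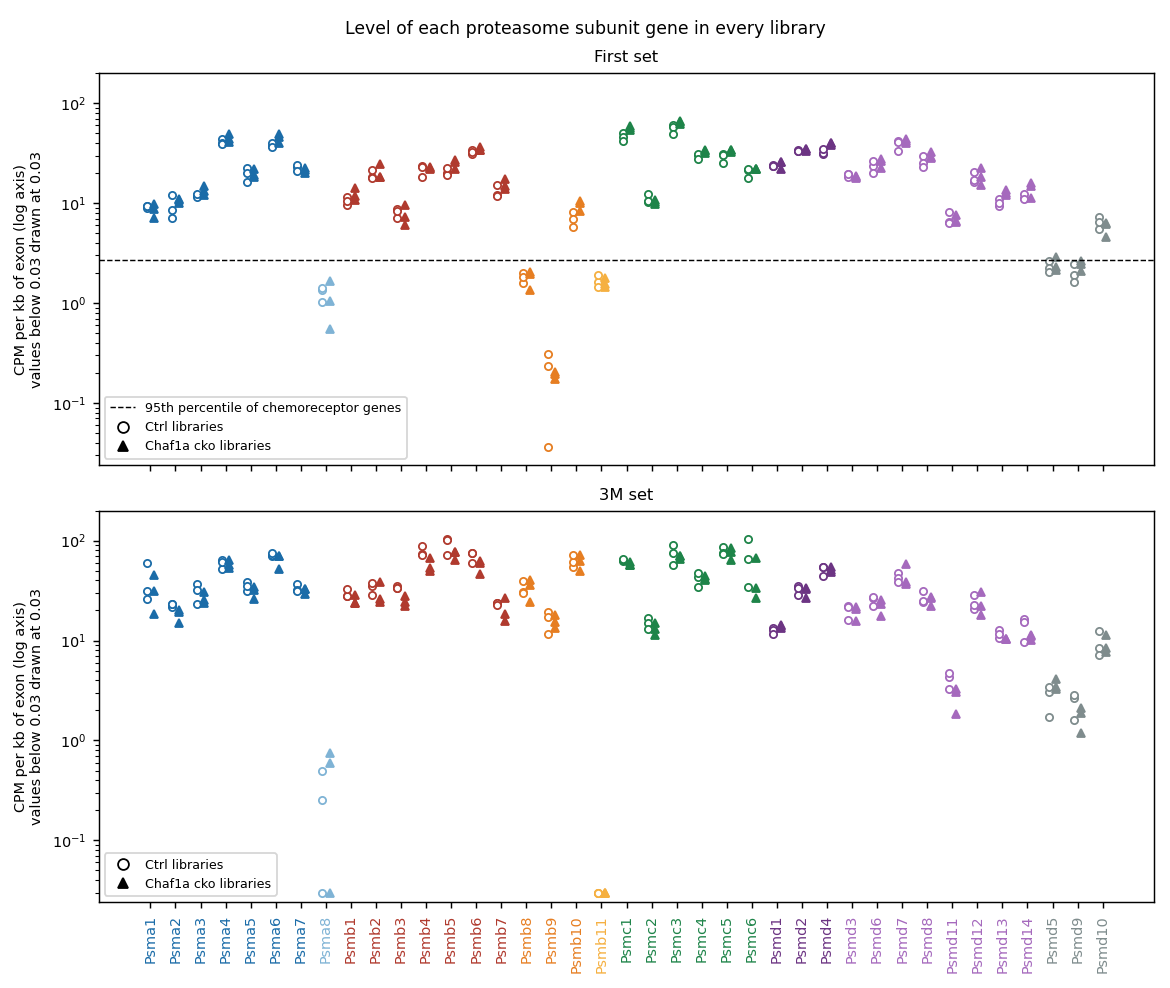
Level of the 39 genes in every library as CPM per kb of exon on a log axis, open circles for Ctrl and triangles for Chaf1a cko, with the first set above and the 3M set below and colours by role. The dashed line is the background of the first table, 2.70 CPM per kb. The means of Psmb8 and Psmb9 lie below that line in the first set. In the 3M set Psmb8 and Psmb10 lie within the range of the constitutive core genes, at 33.5 and 62.2 CPM per kb, Psmb9 lies below it at 15.8, and Psmb11 is at 0 in all libraries.

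The subunit genes of the first set were slightly higher in the libraries labelled Chaf1a cko on the whole, and none passed the test. The summed level of the 39 genes was 2028 ± 55.6 CPM in Ctrl and 2209 ± 13.3 in Chaf1a cko (mean ± SD, n = 3 each), with ranges of 1982 to 2089.9 and 2197 to 2223 that did not overlap. The log2 fold change of Chaf1a cko over Ctrl was above 0 in 28 of the 39 genes, against 49.1% of the 22965 genes tested. The median was 0.12, beside -0.01 over all genes tested. Values ran from -0.20 (Psma8) to 0.47 (Psmb10). The lean was not particular to the subunit genes. Of the 55 other genes of the pathway listed below, 39 were above 0 (70.9%) and 16 below, with a median of 0.10. edgeR's quasi-likelihood test called 0 of the 39 at an adjusted p (Benjamini-Hochberg) under 0.05, where 1.18% of all genes were called. At an unadjusted p under 0.05 there were 7, all higher, against 5.63% of all genes higher at that level. These were Psmd4, Psmc1, Psmd13, Psmc3, Psma6, Psmb10 and Psmd8, and their adjusted p ran from 0.103 (Psmd4) to 0.484 (Psmd8). DESeq2's Wald test called 2 of them, Psmd4 (adjusted p 0.0221) and Psmc1 (adjusted p 0.0498). CPM ranges stood apart between the groups in 9 genes, all with Chaf1a cko above, against 8.33% of all genes with Chaf1a cko above: Psma6, Psmb10, Psmc1, Psmc3, Psmc4, Psmc5, Psmc6, Psmd4 and Psmd13. Several marker sums stood apart between the genotypes as well. Erythroid markers (6 genes, none at 0) summed to 1638 to 2208 CPM in Ctrl and 2279.7 to 2304 CPM in Chaf1a cko. Cardiomyocyte markers (9 genes, none at 0) were at 96449 to 99746 and 91031 to 91645 CPM, and fibroblast markers (7 genes, none at 0) at 3049.7 to 3133 and 2476 to 2494 CPM. The sums of these 2 lists, like that of the macrophage markers given above, were lower in Chaf1a cko without overlap, and that of the erythroid markers was higher. Single genes did not all go with their sum. Log2 fold changes were below 0 in 4 of 9 cardiomyocyte, 6 of 7 fibroblast and 7 of 9 macrophage genes. They were above 0 in 5 of 6 erythroid genes. The part of these marker lists in the subunit genes' values was not tested. In bulk RNA, fewer cells of a type and less RNA per cell cannot be told apart.

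The subunit genes of the 3M set were lower in the libraries labelled Chaf1a cko 3M on the whole, by amounts within the spread between libraries, and again none passed the test. Their summed level was 3443 ± 329 CPM in Ctrl 3M and 3062 ± 259 CPM in Chaf1a cko 3M (SD, n = 3 each), with overlapping ranges of 3080.5 to 3723 and 2785 to 3297. Psmb11 had no counts and was not tested, which left 38 genes. The log2 fold change was below 0 in 32 of them, against 52.0% of the 13925 genes tested, and the median was -0.15, beside -0.02 over all genes tested. edgeR called 0 of the 38, where 0.0144% of all genes were called, and DESeq2's Wald test also called 0. At an unadjusted p under 0.05 there were 2, both lower, Psmb3 and Psmb4, against 3.73% of all genes lower at that level. The ranges did not overlap in 5 genes with Chaf1a cko 3M below (Psma2, Psmb3, Psmb4, Psmc1 and Psmd13), against 6.89% of all genes, and in 1 gene with it above (Psmd1), against 7.21%. The number of genes above 0 was 6 with all libraries, 13 without Ctrl 3M replicate 1, 11 without Ctrl 3M replicate 3 and 11 without Chaf1a cko 3M replicate 3. Chaf1a cko 3M replicate 3 had 7 of the 37 genes that were above 0 counts in all 6 libraries above their mean over the set, the fewest of the 6, and Ctrl 3M replicate 1 had 28, the most. Of the marker sums, that of the cardiomyocyte markers (9 genes, none at 0) was higher in Chaf1a cko 3M without overlap, at 32561 to 39826 CPM in Ctrl 3M and 46396 to 51307 CPM in Chaf1a cko 3M, and that of the macrophage markers was lower. Single genes did not all go with their sum. Log2 fold changes were above 0 in 6 of 9 cardiomyocyte genes and below 0 in 6 of 9 macrophage genes. Erythroid markers, of which up to 3 were at 0 in a library, overlapped at 446 to 1034 and 446 to 4007 CPM. The part of these in the values of the set was not tested.

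**Figure D2:**
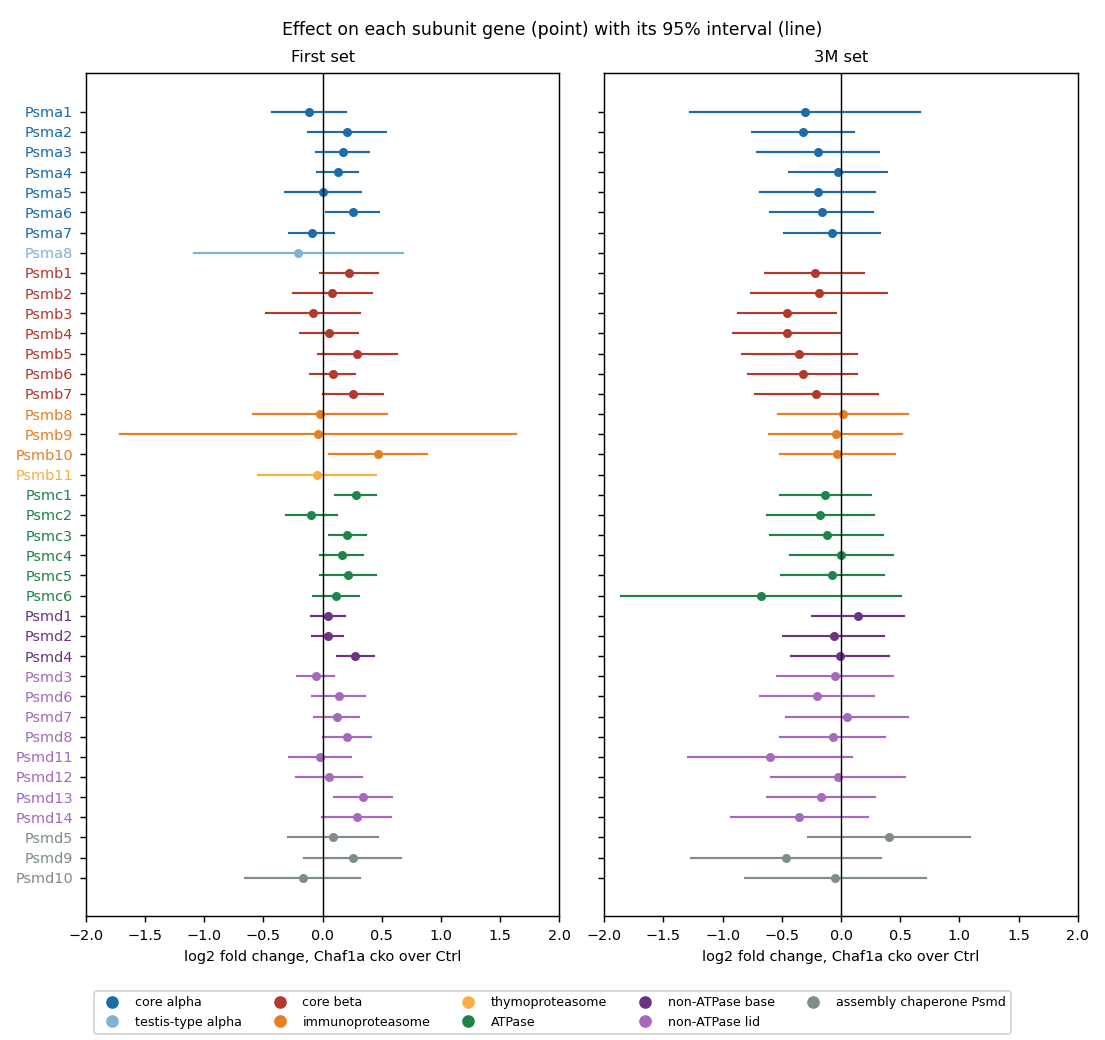
Log2 fold change of Chaf1a cko over Ctrl for each subunit gene with its 95% interval (horizontal axis), the first set left and the 3M set right, coloured by role. In the first set 28 of 39 points lie right of 0 and in the 3M set 32 of 38 lie left of it. Psma8 of the 3M set is not drawn, since its interval is wider than the axis, and Psmb11 was not tested there.

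The alpha genes of the core, whose proteins form the outer rings and the gate, differed little between the groups. Of the 7, 5 were above 0 and 2 below in the first set, with a median log2 fold change of 0.13. Psma6 was the largest, at 45.6, 49.1 and 45.5 CPM (Ctrl) and 60.9, 49.6 and 56.8 CPM (Chaf1a cko). All Chaf1a cko libraries lay above all Ctrl libraries, replicate 2 by a narrow margin, and its log2 fold change was 0.25 (SE 0.11, 95% interval 0.03 to 0.48, adjusted p 0.412). The others were Psma2 at 0.21, Psma3 at 0.17, Psma4 at 0.13, Psma5 at 0.00, Psma7 at -0.09 and Psma1 at -0.12. The sign of Psma5 turned with library size as the only scaling (-0.01). Psma4, the highest alpha gene per length, was at 104, 94.3 and 92.7 CPM (Ctrl) and 116, 97.3 and 103 CPM (Chaf1a cko), and these ranges overlapped. Psma1, the lowest, was at 26.7, 27.8 and 27.7 CPM (Ctrl) and 25.5, 21.1 and 29.2 CPM (Chaf1a cko), with Chaf1a cko replicates on both sides of the Ctrl libraries.

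All 7 alpha genes of the 3M set had log2 fold changes below 0, from -0.32 (Psma2) to -0.03 (Psma4), with a median of -0.19. Psma2, the lowest alpha gene per length, was at 79.3, 85.4 and 85.9 CPM (Ctrl 3M) and 70.7, 74.5 and 55.7 CPM (Chaf1a cko 3M). Its groups did not overlap, and its log2 fold change was -0.32 (SE 0.19, 95% interval -0.75 to 0.11, adjusted p 0.774). Psma6, the highest per length, was at 86.3, 88.4 and 93.2 CPM (Ctrl 3M) and 86.8, 87.4 and 64.9 CPM (Chaf1a cko 3M). Only Chaf1a cko 3M replicate 3 of Psma6 lay below the Ctrl 3M libraries. Psma1 stood apart by its spread, at 177, 77.5 and 91.6 CPM (Ctrl 3M) and 92.0, 135 and 53.9 CPM (Chaf1a cko 3M), with Ctrl 3M replicate 1 above and Chaf1a cko 3M replicate 3 below all others and a log2 fold change of -0.30 (SE 0.42). The remaining values were Psma3 at -0.19, Psma5 at -0.20, Psma6 at -0.16 and Psma7 at -0.08. The sign of Psma4 turned with library size as the only scaling (0.0039).

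Psma8 encodes an alpha subunit that takes the place of Psma7 in the testis. First-set values were 3.34, 2.59 and 3.54 CPM (Ctrl) and 1.38, 2.60 and 4.19 CPM (Chaf1a cko), below background per length, with overlapping groups and a log2 fold change of -0.20 (SE 0.42). It was at 0, 1.24 and 0.639 CPM (Ctrl 3M) and 1.498, 1.86 and 0 CPM (Chaf1a cko 3M) in the 3M set, with 1 library of each group at 0 counts and a log2 fold change of 0.80 (SE 1.79). A count of 0 allows up to 0.266 CPM in Ctrl 3M replicate 1 and up to 0.194 CPM in Chaf1a cko 3M replicate 3, counting error only. Its level per exon base was 0.0279 to 0.0786 of that of Psma7 in the libraries of the first set and 0 to 0.0225 in those of the 3M set.

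Of the 7 constitutive beta genes 3 encode the catalytic subunits: Psmb5 cuts after hydrophobic residues, Psmb6 after acidic and Psmb7 after basic ones. The promoter stretches of Psmb5, Psmb6 and the inducible Psmb10 are shown as examples of the catalytic genes compared below. They are 90 bases of the RefSeq GRCm38.p6 window that hold no annotated exon, written along the gene's strand. In that order they span -117 to -28, -90 to -1 and -142 to -53 from the annotated start, so their positions differ. The windows of Psmb8 and Psmb9 held no such stretch, and Psmb7 was not searched for one. Psmb5 lies at chr14:54618023-54618112 on the minus strand, Psmb6 at chr11:70525267-70525356 on the plus strand and Psmb10 at chr8:105938445-105938534 on the minus strand. Capitals mark a match to TGANNNNGC, the core of the antioxidant response element that NFE2-related factors, known regulators of subunit genes, bind.
Psmb5: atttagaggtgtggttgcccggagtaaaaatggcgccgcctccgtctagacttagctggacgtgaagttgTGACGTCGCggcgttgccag
Psmb6: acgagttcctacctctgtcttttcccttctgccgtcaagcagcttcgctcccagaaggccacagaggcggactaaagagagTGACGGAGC
Psmb10: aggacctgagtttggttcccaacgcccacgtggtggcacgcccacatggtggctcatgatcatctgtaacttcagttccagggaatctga
The stretches of Psmb5 and Psmb6 each hold 1 match and that of Psmb10 holds none of the motifs searched.

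Promoter windows of 300 bases, from 250 before to 50 after the annotated start, were given for 32 of the 39 genes and for 27025 genes in all. Both strands were searched. TGANNNNGC occurred in 19 of the 32 windows (59.4%), against 45.0% of all windows, among them those of Psmb5, Psmb6, Psmb8 and Psmb9. CCAAT occurred in 13 (40.6%), against 41.1%, and TATAAA in 4 (12.5%), against 15.7%. The interferon-stimulated element, as paired half-sites, occurred in 3 (9.38%), against 3.99%, which were those of Psmb3, Psmd4 and Psmd9. The palindromic nuclear respiratory factor element occurred in 1, that of Psma2 (3.12%, against 1.07%), and TGACGTCA, the cyclic AMP element, in 0, against 2.03%. A match is a description of the letters in the window and not evidence of binding.

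The constitutive beta genes differed within the spread between libraries in the first set. Log2 fold changes were above 0 in 6 of 7, with a median of 0.09. Groups did not overlap in 0, against 8.33% of all genes with Chaf1a cko above. Psmb5 was at 18.1, 17.1 and 20.1 CPM (Ctrl) and 19.96, 24.2 and 23.5 CPM (Chaf1a cko). The lowest Chaf1a cko library lay just under the highest Ctrl library, and the log2 fold change was 0.29 (SE 0.16, 95% interval -0.04 to 0.62, adjusted p 0.580). Psmb6, the highest beta gene per length, was at 64.0, 58.7 and 61.4 CPM (Ctrl) and 63.2, 63.1 and 69.1 CPM (Chaf1a cko), with a log2 fold change of 0.09 (SE 0.09). Psmb7 was at 41.3, 40.4 and 51.6 CPM (Ctrl) and 51.4, 59.6 and 47.9 CPM (Chaf1a cko), with a log2 fold change of 0.25 (SE 0.12). Both overlapped between the groups. Psmb3, the lowest beta gene per length, was at 20.3, 16.4 and 19.2 CPM (Ctrl) and 22.2, 14.02 and 16.7 CPM (Chaf1a cko) and was the only one below 0 (-0.08), with overlapping groups. The structural subunits Psmb1, Psmb2 and Psmb4 had log2 fold changes of 0.22, 0.08 and 0.06.

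All 7 beta genes of the 3M set were below 0, with a median of -0.32, the lowest of the roles with more than 1 gene. Psmb3 (chr11:97703399-97713500) was at 80.5, 77.0 and 77.3 CPM (Ctrl 3M) and 56.3, 51.4 and 63.7 CPM (Chaf1a cko 3M). Every Chaf1a cko 3M library lay below every Ctrl 3M library, and the means were 78.3 ± 1.96 and 57.1 ± 6.17 CPM (SD, n = 3 each). Its log2 fold change came to -0.45 (SE 0.18, 95% interval -0.87 to -0.04, adjusted p 0.712). Psmb4 (chr3:94884093-94886961) was at 143, 139 and 171 CPM (Ctrl 3M) and 130.5, 96.8 and 103 CPM (Chaf1a cko 3M), also without overlap, with means of 151 ± 17.2 and 110.0 ± 18.0 CPM and a log2 fold change of -0.46 (SE 0.20, 95% interval -0.91 to -0.00, adjusted p 0.712). Neither passed the adjusted threshold.

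The catalytic genes of the 3M set overlapped between the groups. Psmb5 was at 93.2, 64.1 and 92.2 CPM (Ctrl 3M) and 69.0, 57.6 and 68.9 CPM (Chaf1a cko 3M), with a log2 fold change of -0.35 (SE 0.21, 95% interval -0.84 to 0.13, adjusted p 0.776). Psmb6 was at 140.4, 113 and 142 CPM (Ctrl 3M) and 117, 111 and 86.7 CPM (Chaf1a cko 3M), with -0.32 (SE 0.20), and its lowest value was that of Chaf1a cko 3M replicate 3. Psmb7, the lowest beta gene per length there, was at 80.4, 81.6 and 78.1 CPM (Ctrl 3M) and 91.1, 62.9 and 53.9 CPM (Chaf1a cko 3M), with -0.21 (SE 0.23). Chaf1a cko 3M replicate 1 of Psmb7 was higher than all Ctrl 3M libraries, and its other replicates were lower than all of them. Psmb1 was at -0.22 and Psmb2 at -0.19.

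The immunoproteasome genes gave different pictures in the 2 tables. Psmb10 (chr8:105935735-105938444), the inducible counterpart of Psmb7, had the largest positive log2 fold change of the 39 genes in the first set. Its values were 13.9, 11.8 and 9.78 CPM (Ctrl) and 17.1, 14.2 and 17.7 CPM (Chaf1a cko). The lowest Chaf1a cko library was just above the highest Ctrl library, and the means were 11.8 ± 2.07 and 16.3 ± 1.89 CPM (SD, n = 3 each). Its log2 fold change came to 0.47 (SE 0.20, 95% interval 0.05 to 0.88, adjusted p 0.422). Psmb8, the counterpart of Psmb5, was at 6.75, 5.43 and 6.19 CPM (Ctrl) and 6.55, 6.96 and 4.59 CPM (Chaf1a cko), and Psmb9, the counterpart of Psmb6, at 0.134, 1.14 and 0.850 CPM (Ctrl) and 0.721, 0.637 and 0.740 CPM (Chaf1a cko). Both overlapped, with log2 fold changes of -0.02 (SE 0.27) and -0.04 (SE 0.79), and both were below background per length, at 1.80 and 0.192 CPM per kb.

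All 3 had counts in every library of the 3M set and did not differ beyond the spread. Psmb8 was at 103, 134.4 and 101 CPM (Ctrl 3M) and 122, 138 and 81.5 CPM (Chaf1a cko 3M). Psmb9 was at 42.3, 71.1 and 62.4 CPM (Ctrl 3M) and 65.7, 48.5 and 56.5 CPM (Chaf1a cko 3M). Psmb10 was at 92.2, 105 and 124 CPM (Ctrl 3M) and 107, 123 and 84.4 CPM (Chaf1a cko 3M). In each gene the groups overlapped, and the log2 fold changes were 0.02 (SE 0.24, 95% interval -0.53 to 0.57, adjusted p 0.992) for Psmb8, -0.04 (95% interval -0.60 to 0.52) for Psmb9 and -0.03 (95% interval -0.52 to 0.46) for Psmb10. Exons of Psmb9 overlap those of Tap1 on the other strand and exons of Psmb8 those of Gm20496, and since the strandedness of the counting is not stated in the sources, reads of these partners cannot be told apart.

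Within a library the ratio of each inducible gene to its constitutive counterpart, per exon base, needs no scaling between libraries. Psmb8 over Psmb5 was 0.0886 ± 0.00951 in Ctrl, 0.0719 ± 0.0181 in Chaf1a cko, and 0.380 ± 0.153 and 0.475 ± 0.162 in the Ctrl and Chaf1a cko libraries of the 3M set (SD, n = 3 each). Psmb9 over Psmb6 was 0.00602 ± 0.00451, 0.00549 ± 0.000334, 0.234 ± 0.0846 and 0.281 ± 0.0558 in the same order. Psmb10 over Psmb7 was 0.547 ± 0.152, 0.629 ± 0.137, 2.69 ± 0.450 and 3.14 ± 0.775. Genotypes overlapped in all 3 ratios in both tables. The 6 libraries of the 3M set lay above the 6 of the first set in each ratio, with 0.291 to 0.638 against 0.0520 to 0.0995 for Psmb8 over Psmb5. The tables were made separately and differ in background reads, and no test was made between them. The summed level of 10 genes of antigen processing was 355 to 377 CPM in the first set and 3182 to 4890 CPM in the 3M set. The macrophage markers given above, endothelial markers (6 genes, 2670 to 2909 and 7131 to 10680 CPM) and cardiomyocyte markers (9 genes, 91031 to 99746 and 32561 to 51307 CPM) also lay apart between the tables, on separate scales. Lymphocyte markers (8 genes) summed to 16.9 to 21.9 CPM in the first set and 1.22 to 14.8 CPM in the 3M set, where 1 to 6 of them were at 0. The sums were not corrected for background reads. Chemoreceptor genes had a median of 1.66 CPM per gene in the first set (95th percentile 5.35 CPM) and of 0 in the 3M set. The part of these antigen processing and marker lists in the ratios was not tested.

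**Figure D3:**
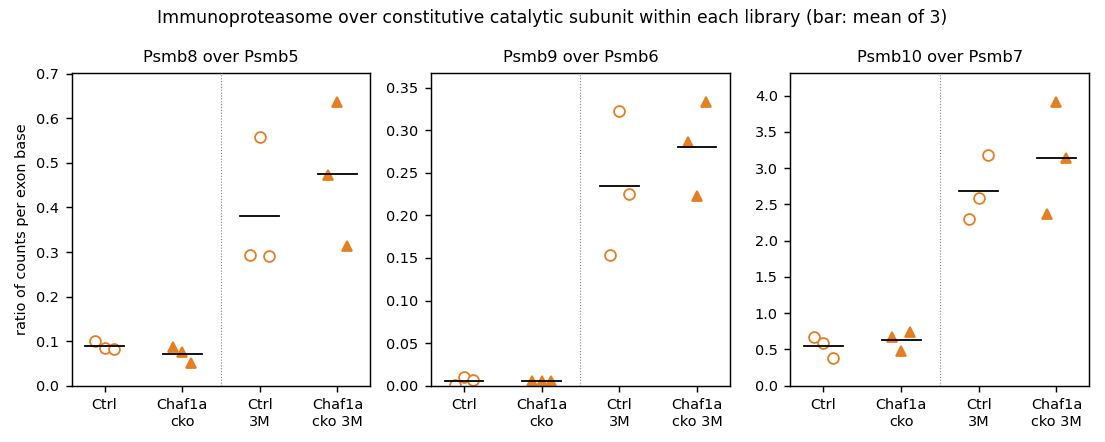
Ratio of counts per exon base of each immunoproteasome gene to its constitutive counterpart in every library (points) with the mean of 3 (bar), by group, and the tables separated by a dotted line. Both genotypes overlap in each panel, and Psmb10 over Psmb7 runs from 0.380 to 0.743 in the first set and from 2.30 to 3.92 in the 3M set.

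Psmb11 encodes the beta subunit of the thymus cortex and lies beside Psmb5 on chromosome 14. It was at 7.76, 6.88 and 9.07 CPM (Ctrl) and 6.97, 8.44 and 7.49 CPM (Chaf1a cko) in the first set, below background per length and with overlapping groups. It had 0 counts in each of the 6 libraries of the 3M set, which allows at most 0.182 to 0.284 CPM per library. No fold change is given for it there.

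The ATPase genes, whose products form the ring that unfolds substrates, were the role with the most separated groups in the first set. Of the 6, 5 were above 0, with a median log2 fold change of 0.18 over the role. The same 5 had Chaf1a cko libraries above all Ctrl libraries, against 8.33% of all genes. Ctrl replicate 3 was the lowest library in each of these 5, so they are not separate results. Psmc1 (chr12:100110154-100123405) was at 98.3, 89.3 and 80.9 CPM (Ctrl) and 104, 113 and 108 CPM (Chaf1a cko). Its means were 89.5 ± 8.70 and 109 ± 4.54 CPM (SD, n = 3 each), for a log2 fold change of 0.28 (SE 0.08, 95% interval 0.11 to 0.45, adjusted p 0.149). Psmc3 (chr2:91054009-91066369), the highest gene per length, was at 159, 150.1 and 129 CPM (Ctrl) and 161, 174 and 169 CPM (Chaf1a cko), so that the groups were apart by a narrow margin. Its log2 fold change was 0.21 (SE 0.07, 95% interval 0.05 to 0.36, adjusted p 0.287). Psmc5 was at 0.21 (SE 0.11, adjusted p 0.566), Psmc4 at 0.16 (SE 0.09, adjusted p 0.574) and Psmc6 at 0.12 (SE 0.09, adjusted p 0.760). The groups of Psmc6 were barely apart, with the highest Ctrl library at 76.7 CPM and the lowest Chaf1a cko library at 77.1 CPM. Psmc2, the lowest ATPase gene per length, was at 52.0, 62.0 and 52.9 CPM (Ctrl) and 49.9, 54.7 and 51.5 CPM (Chaf1a cko), with overlapping groups and a log2 fold change of -0.10 (SE 0.10). Of the 50-base words of Psmc1 14.1% also occur in other transcripts, chiefly those of Gm9575, and exons of Psmc3 overlap those of Slc39a13 on the other strand.

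The ATPase genes did not keep that separation in the 3M set. The log2 fold changes were below 0 in 5 of 6, with a median of -0.13. Psmc1 was at 122, 125 and 126 CPM (Ctrl 3M) and 111, 119 and 111 CPM (Chaf1a cko 3M). The groups did not overlap, with the Chaf1a cko 3M libraries lower, and the log2 fold change was -0.13 (SE 0.17). Psmc6 had the most negative value of the 38 genes, -0.67 (SE 0.50, 95% interval -1.86 to 0.51, adjusted p 0.820), from 365, 119 and 229 CPM (Ctrl 3M) and 117, 237 and 93.2 CPM (Chaf1a cko 3M). Its highest library was Ctrl 3M replicate 1 and its groups overlapped widely. The coefficient of variation of Psmc6 was 51.9% over the Ctrl 3M libraries and 51.7% over the Chaf1a cko 3M libraries, against medians over the tested subunit genes of 13.5% and 14.6%. Psmc6 and Psma1 were both highest in Ctrl 3M replicate 1 and both lowest in Chaf1a cko 3M replicate 3. Psmc5, the highest ATPase gene per length there, was at 122, 104 and 103 CPM (Ctrl 3M) and 89.4, 116 and 107 CPM (Chaf1a cko 3M) and Psmc2, the lowest, at 84.1, 74.99 and 65.8 CPM (Ctrl 3M) and 57.4, 75.4 and 66.4 CPM (Chaf1a cko 3M). Both overlapped, with log2 fold changes of -0.07 and -0.17. Psmc3 was at -0.12 and Psmc4 at 0.00.

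The base also holds the non-ATPase genes Psmd1, Psmd2 and Psmd4. Psmd4 (chr3:95032694-95042614) encodes a ubiquitin receptor and had the smallest p of the 39 genes in the first set. Its values were 88.1, 89.9 and 97.0 CPM (Ctrl) and 106, 113 and 113 CPM (Chaf1a cko). The Chaf1a cko libraries all lay above the Ctrl libraries, and the means were 91.6 ± 4.70 and 111 ± 4.14 CPM (SD, n = 3 each). Its log2 fold change came to 0.28 (SE 0.07, 95% interval 0.12 to 0.43, adjusted p 0.103), with an unadjusted p of 0.00164, and DESeq2's Wald test gave the adjusted p of 0.0221 named above. Psmd4 was the highest non-ATPase gene per length of the 3M set, at 154, 126 and 155 CPM (Ctrl 3M) and 155, 137.2 and 141.3 CPM (Chaf1a cko 3M), with overlapping groups and a log2 fold change of -0.01 (SE 0.18, 95% interval -0.42 to 0.41, adjusted p 0.998). That sign turned with library size as the only scaling (0.03) and without a filter (0.0047). Psmd1 and Psmd2 encode the large scaffold proteins of the base and had log2 fold changes of 0.04 and 0.04 in the first set. Psmd1 of the 3M set was at 96.1, 93.6 and 85.4 CPM (Ctrl 3M) and 97.4, 103 and 104 CPM (Chaf1a cko 3M), the only one of the 38 subunit genes tested there with Chaf1a cko 3M above Ctrl 3M in all libraries, with a log2 fold change of 0.14 (SE 0.17). Psmd2 was at -0.06. Exons of Psmd1 overlap those of Gm21972 on the same strand and those of Htr2b on the other strand.

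The lid detaches ubiquitin chains from the substrate. Of its 8 genes 6 were above 0 in the first set (median 0.13). Groups did not overlap in 1, Psmd13, against 8.33% of all genes with Chaf1a cko above. Psmd13 (chr7:140881968-140898643), a scaffold subunit, was at 36.9, 31.3 and 33.6 CPM (Ctrl) and 45.4, 40.4 and 43.2 CPM (Chaf1a cko). Its means were 33.9 ± 2.81 and 43.0 ± 2.54 CPM (SD, n = 3 each), for a log2 fold change of 0.34 (SE 0.12, 95% interval 0.09 to 0.59, adjusted p 0.262). Exons of Psmd13 overlap those of Sirt3 on the other strand. Psmd14, the deubiquitinase of the lid, had a log2 fold change of 0.29 (SE 0.14, 95% interval -0.00 to 0.58, adjusted p 0.495). Psmd7, the highest lid gene per length, was at 95.04, 76.0 and 93.7 CPM (Ctrl) and 100.3, 95.3 and 91.5 CPM (Chaf1a cko) and Psmd11, the lowest, at 41.1, 40.7 and 52.2 CPM (Ctrl) and 48.9, 41.1 and 42.3 CPM (Chaf1a cko). Both overlapped, with log2 fold changes of 0.12 and -0.02. The others were Psmd8 at 0.20, Psmd6 at 0.13, Psmd12 at 0.05 and Psmd3 at -0.06.

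Of the 8 lid genes 7 were below 0 in the 3M set (median -0.12). Psmd13 was at 35.6, 43.3 and 39.5 CPM (Ctrl 3M) and 35.1, 35.2 and 35.1 CPM (Chaf1a cko 3M), so that the 3 Chaf1a cko 3M libraries were nearly equal and below all Ctrl 3M libraries, by a margin of less than 1 CPM, with a log2 fold change of -0.17 (SE 0.20). Psmd11 was at 27.8, 30.5 and 20.8 CPM (Ctrl 3M) and 19.6, 21.1 and 11.6 CPM (Chaf1a cko 3M), with Chaf1a cko 3M replicate 3 the lowest and replicate 2 above 1 Ctrl 3M library, for a log2 fold change of -0.60 (SE 0.30, 95% interval -1.29 to 0.09, adjusted p 0.747). Of the remaining lid genes Psmd14 was at -0.35, Psmd6 at -0.21, Psmd8 at -0.07, Psmd3 at -0.05, Psmd12 at -0.03 and Psmd7 at 0.05. The sign of Psmd12 turned with library size as the only scaling (0.01).

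Psmd5, Psmd9 and Psmd10 encode chaperones that help to assemble the base and leave the finished particle. Psmd10 was at 10.7, 8.17 and 9.54 CPM (Ctrl) and 6.79, 9.14 and 9.27 CPM (Chaf1a cko) in the first set, with overlapping groups and a log2 fold change of -0.17 (SE 0.23). Psmd5 and Psmd9 had 0.09 (SE 0.18) and 0.25 (SE 0.19). Psmd9 was at 17.9, 13.8 and 11.9 CPM (Ctrl) and 18.9, 17.9 and 15.04 CPM (Chaf1a cko) and was the lowest Psmd gene per length, with overlapping groups. Psmd9 of the 3M set was at 11.6, 19.4 and 20.8 CPM (Ctrl 3M) and 15.4, 13.6 and 8.59 CPM (Chaf1a cko 3M), where Ctrl 3M replicate 1 lay within the Chaf1a cko 3M libraries, with a log2 fold change of -0.47 (SE 0.35, 95% interval -1.27 to 0.34, adjusted p 0.821). Psmd5 was at 21.8, 25.02 and 12.5 CPM (Ctrl 3M) and 24.8, 23.9 and 30.0 CPM (Chaf1a cko 3M). Its groups overlapped through 1 Ctrl 3M library, and its log2 fold change was 0.41 (SE 0.30, 95% interval -0.28 to 1.09, adjusted p 0.820). Psmd10 was at -0.05. Psmd5 and Psmd9 hold 7230 and 7248 annotated exon bases, 2 of the 3 longest sums of the 39.

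**Figure D4:**
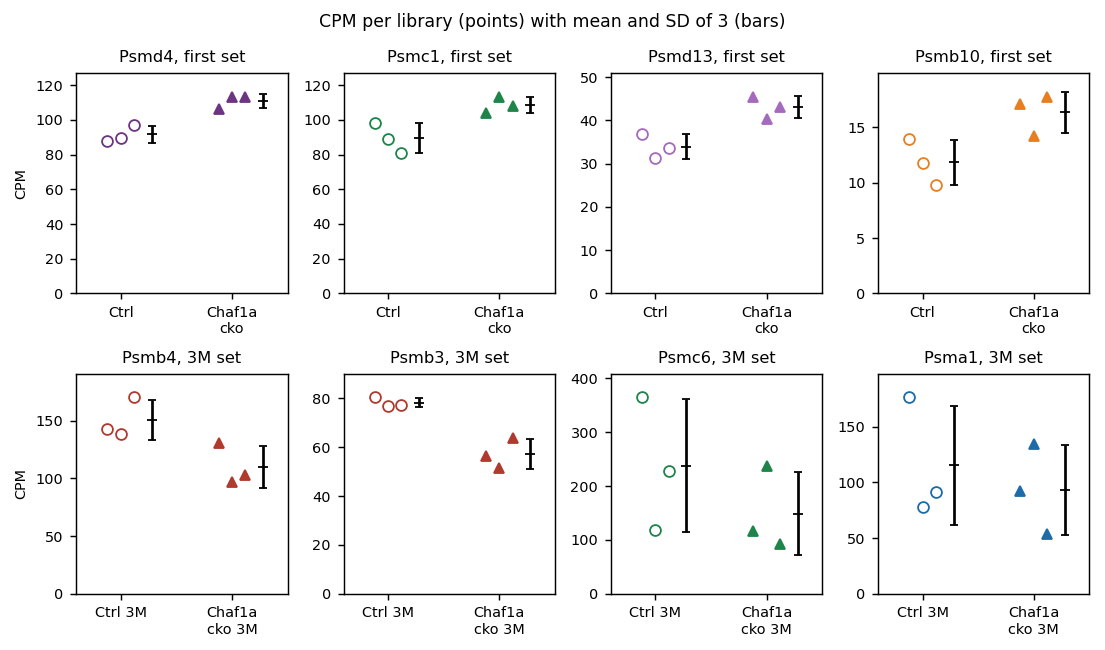
CPM per library (points, open for Ctrl and filled for Chaf1a cko) with the mean and SD of 3 libraries (bars) for 4 genes of the first set above and 4 of the 3M set below, on vertical axes that start at 0. The groups do not overlap for Psmd4, Psmc1, Psmd13, Psmb10, Psmb4 and Psmb3, and they overlap widely for Psmc6 and Psma1.

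Whether the effect differed between the sets was tested by the interaction of set and genotype over all 12 libraries. The difference, 3M minus first, has a value only for genes with counts in both sets, which leaves out Psmb11. It was below 0 in 30 of the remaining 38 genes, with a median of -0.24 on the log2 scale, beside -0.00 over all 16886 such genes, of which 50.2% were below 0. edgeR called 0 of the 38, where 0.0888% of all genes were called, and DESeq2's Wald test also called 0. At an unadjusted p under 0.05 there were 3, against 12.8% of all genes: Psmd13 with a difference of -0.47 (SE 0.18, adjusted p 0.502), Psmb5 with -0.60 (SE 0.24, adjusted p 0.520) and Psmc1 with -0.37 (SE 0.15, adjusted p 0.523). The largest negative difference was that of Psmc6, -0.75 (SE 0.54, adjusted p 0.764). Of the 38 genes tested in both sets, 24 were above 0 in the first set and below 0 in the 3M set (63.2%, against 28.7% of 13856 genes tested in both). Another 8 were below 0 in both, 4 above 0 in both, and 2 below 0 in the first set and above 0 in the 3M set. These joint counts follow largely from the numbers above and below 0 within each set and are not a further test. The sets share no library. Of the marker sums given above for each set, that of the cardiomyocyte markers was lower in Chaf1a cko and higher in Chaf1a cko 3M.

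The subunit genes varied between libraries of a group about as much as other genes of like level. Their median coefficient of variation was 10.8% in Ctrl, 9.50% in Chaf1a cko, 13.5% and 14.6% in their 3M counterparts. Over all genes within the middle range of their levels it was 9.68%, 8.90%, 18.5% and 15.4%.

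Of the other genes of the pathway, edgeR called 0 within either set. These lists hold proteasome activators and the inhibitor (5 genes), assembly factors (8), other proteasome parts (4), transcriptional regulators (7), ubiquitin genes and delivery factors (13), muscle ubiquitin ligases (8) and antigen processing genes (10). At an unadjusted p under 0.05 there were 15 of the 55 in the first set, 11 higher and 4 lower, against 10.1% of all genes. There were 5 in the 3M set, 3 higher and 2 lower, against 6.93%. Among those DESeq2's Wald test called in the first set were Ddi2 and Psme3, higher, and H2-D1, lower, and it called 1 in the 3M set, Psme4. The medians of the lists in the first set and the 3M set were 0.06 and 0.13 for activators and inhibitor, 0.01 and -0.00 for assembly, and 0.19 and 0.03 for other parts. They were 0.02 and 0.28 for regulators, 0.15 and -0.14 for ubiquitin and delivery, 0.14 and 0.26 for muscle ligases, and 0.04 and -0.10 for antigen processing. In the ubiquitin list 11 of 13 genes were above 0 in the first set and 5 of 13 in the 3M set.

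The abundant genes named here from these lists had small log2 fold changes in the first set. Nfe2l1 and Nfe2l2, transcription factors that raise subunit genes when the proteasome is impaired or under oxidative stress, were at 0.02 (SE 0.05) and 0.23 (SE 0.08). Ubb, a polyubiquitin gene, was at 0.01 (SE 0.04). Sem1 and Adrm1, a small lid protein and a ubiquitin receptor, were at 0.21 (SE 0.09) and 0.16 (SE 0.09), and Ecpas, which binds proteasomes, at -0.17 (SE 0.07). The muscle ligases Trim55 and Trim63, which act on sarcomere proteins, were at 0.13 (SE 0.05) and -0.01 (SE 0.06). Psme1, a subunit of the interferon-inducible activator, was at 0.00 (SE 0.06), and Irf1 and B2m of antigen processing at -0.07 (SE 0.08) and -0.01 (SE 0.11). Nfe2l1 of the 3M set was at 0.28 (SE 0.21), Nfe2l2 at -0.50 (SE 0.29) and Ubb at -0.14 (SE 0.17). Ecpas was at 0.34 (SE 0.23), Pomp, the maturation factor of the core, at 0.06 (SE 0.18), Sem1 at -0.37 (SE 0.19) and Adrm1 at -0.21 (SE 0.20). Asb2 was at 0.43 (SE 0.20), Stub1 at 0.06 (SE 0.18), Psme1 at 0.13 (SE 0.18), Psme2 at 0.23 (SE 0.19), B2m at -0.47 (SE 0.25) and H2-D1 at -0.09 (SE 0.22).

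Psme4, which encodes an activator that caps the core in place of the regulatory particle, was the only gene of these lists whose effect differed between the sets in edgeR. Its values were 176, 191 and 166 CPM (Ctrl) and 167, 173 and 152 CPM (Chaf1a cko) in the first set, with overlapping groups and a log2 fold change of -0.12 (SE 0.07, 95% interval -0.26 to 0.02, adjusted p 0.609). Its 3M values were 140.5, 167 and 145 CPM (Ctrl 3M) and 287, 307 and 283 CPM (Chaf1a cko 3M). Every Chaf1a cko 3M library there lay far above every Ctrl 3M library, and the means were 151 ± 14.1 and 292 ± 13.2 CPM (SD, n = 3 each). Its log2 fold change came to 0.95 (SE 0.18, 95% interval 0.55 to 1.35, adjusted p 0.416) in edgeR, with an unadjusted p of 0.000464, and DESeq2's Wald test gave an adjusted p of 0.00115. The difference of the effects was 1.11 on the log2 scale (SE 0.16, 95% interval 0.76 to 1.46, adjusted p 0.0487 in edgeR over all 22803 genes fitted). It kept its size, from 1.01 to 1.19, without each of the 12 libraries in turn, and its adjusted p then ran from 0.0152 to 0.173 and passed in 3 of the 12 fits, those without Ctrl 3M replicate 2, Ctrl 3M replicate 3 or Chaf1a cko 3M replicate 1. Psme4 is thus singled out among the 55 for its value. DESeq2's Wald test called the difference of Psme4 (adjusted p 9.77e-10) and of Trim55 (adjusted p 0.0377).

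**Figure D5:**
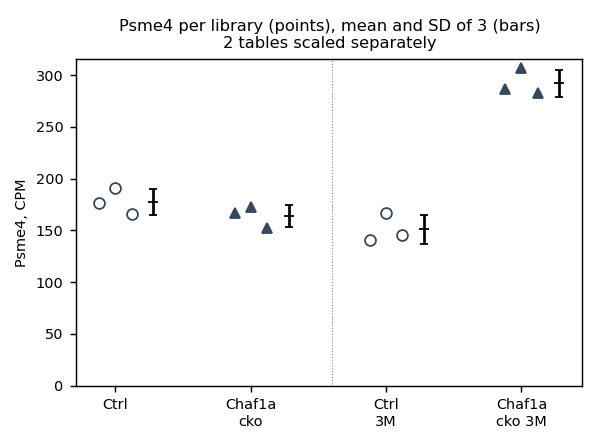
CPM of Psme4 in every library (points) with the mean and SD of 3 (bars) by group, with the tables, which were scaled separately, on either side of the dotted line and the vertical axis from 0. The Chaf1a cko 3M libraries lie between 283 and 307 CPM and the Ctrl 3M libraries between 140.5 and 167 CPM, while the first-set groups overlap.

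Some of the 39 genes share reads with other loci, which bears on their single values. The share of 50-base words found in transcripts of other genes was 54.1% for Psmb5, 49.1% for Psma5, 17.8% for Psmd2, 17.8% for Psmb3, 15.4% for Psma3, 14.1% for Psmc1 and 11.6% for Psma4, and under 10% for the other 32. Besides those named above, exons of Psmb5 overlap Mir686 on the same strand, those of Psmb7 overlap those of Nek6 on the other strand, those of Psma4 overlap AY074887, those of Psma5 overlap 1700010K24Rik, those of Psmd3 overlap Gm12356 and those of Psmd9 overlap Gm26745. The sources do not state how the counting treated such reads.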

How the data were processed

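Per the labels' protocols, total RNA of cultured heart cardiomyocytes was extracted with TRIzol and made into stranded libraries after removal of ribosomal RNA. Per the submitters' processing notes, FastQC, Trimmomatic, HISAT2 and mm10 were used. The authors deposited whole-number counts per gene symbol, in 2 tables of 6 libraries with no normalization. Not given in the sources used here are the counting program, annotation and strandedness.

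Each table was fitted alone with edgeR 4.0.16 in R 4.3.3: filterByExpr (count 10, total 15) removed low genes, TMM set the scaling, and the robust quasi-likelihood test was two-sided, at a Benjamini-Hochberg adjusted p of 0.05 over all genes tested. Set by genotype interaction over 12 libraries gave the difference between the sets, read only for genes with counts in both. CPM were scaled by TMM, and lengths were the joined exons of GENCODE on GRCm38, the assembly of mm10. Read sharing was measured as 50-base words found in transcripts of other genes. Other settings tried were library size alone, DESeq2 size factors, DESeq2 1.42.0's Wald test, no filter, at least 10 CPM in at least 3 libraries, a replicate block and leaving out each library.

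Values per library are given for the catalytic, inducible and tissue-restricted genes, the 3 highest and 3 lowest log2 fold changes per set, and the highest and lowest gene per length in each role. Of other lists up to 3 abundant genes are named, and some genes are not reported here. The genes, lists and rule were chosen with earlier results of these data known. Psma6, Psmc1 and Psmd4 in the first set, Psma1, Psmb3, Psmb4, Psmc1 and Psmd13 in the 3M set, and genes named beside a count were added after their values were seen. Standard errors at this depth include both counting error and library spread.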

Additional observations from a re-analysis of the deposited data

Results flagged for a closer look

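Psme4 showed a difference between the sets. The test of the difference itself, the interaction of set and genotype in edgeR, gave 1.11 on the log2 scale (3M minus first, SE 0.16, adjusted p 0.0487). Psme4 was higher in 3 of 3 Chaf1a cko 3M libraries than in all Ctrl 3M libraries, and in the first set the groups overlapped. The adjusted p was above 0.05 in 9 of the 12 fits that left out 1 library. Groups of 3 libraries are too small to look for single libraries that stand apart.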

How the results depend on the processing

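The call of 0 subunit genes held in both sets and for the difference under every alternative run except DESeq2's Wald test, which called 2 in the first set. Over 115 results of the 39 genes, 1500 of 1601 alternative values kept their direction and side of the threshold and 99 in 37 results turned sign. With 1 library left out, 27 to 31 genes were above 0 in the first set, 7 to 13 in the 3M set and 6 to 11 for the difference, and the medians ran from 0.10 to 0.15, from -0.16 to -0.09 and from -0.34 to -0.24. The median difference was -0.34 without Ctrl 3M replicate 2. Replicate numbers did not pair the libraries: deviations of same-numbered libraries correlated at -0.022 to 0.048 in the first set and -0.028 to 0.002 in the 3M set. With the replicate block 192 genes were called in the first set, where 270 were without it, 0 in the 3M set, where 2 were, and 0 for the difference, where 15 were. The 15 were counted over the 16886 genes with counts in both sets. Calls of the alternatives for the difference were counted over all genes fitted, 22803 with the block, so these counts cover unlike sets of genes. The block turned Psmb9 in the first set (0.22), Psmb8 in the 3M set (-0.0045) and the difference of Psmb9 (-0.045), and gave Psme4 a difference of 1.11 with an adjusted p of 0.185. The alternatives for the difference that left out a library or used the block, and those for other pathway genes, were chosen after seeing the data. Over all genes, DESeq2's Wald test called 479, 72 and 454 genes, and leaving out 1 library gave 128 to 201, 0 to 5 and 1 to 110. Without a filter 6 genes were called in the 3M set and 6 for the difference, and with library size alone 7 for the difference. Library size alone turned Psma5 (-0.014), Psme1 (-0.017), Nfe2l1 (-0.00086) and Ubb (-0.0059) in the first set and Psmd4 (0.025), Psma4 (0.0039) and Psmd12 (0.0089) in the 3M set. The filter of 10 CPM turned Psma5 (-0.022), Psme1 (-0.024), Nfe2l1 (-0.0084) and Ubb (-0.014) in the first set, and no filter turned Psmd4 in the 3M set (0.0047). The difference of Psmd7 turned with DESeq2 size factors and DESeq2's test (0.0036 and 0.0041). The causes were not tested.

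The log2 value of 43 results changed sign without a single library. In the first set it ran from -0.14 to 0.083 for B2m, from -0.12 to 0.11 for Psma5, from -0.66 to 0.10 for Psma8, from -0.14 to 0.064 for Psmb11, from -0.070 to 0.18 for Psmb2, from -0.28 to 0.059 for Psmb3, from -0.042 to 0.12 for Psmb4, from -0.14 to 0.14 for Psmb8, from -0.50 to 0.46 for Psmb9, from -0.0037 to 0.12 for Psmd1, from -0.10 to 0.11 for Psmd11, from -0.10 to 0.18 for Psmd12, from -0.047 to 0.20 for Psmd5, from -0.018 to 0.030 for Psme1, from -0.041 to 0.034 for Trim63, from -0.0071 to 0.043 for Ubb. In the 3M set it ran from -0.26 to 0.12 for H2-D1, from -0.051 to 0.13 for Pomp, from -0.66 to 0.14 for Psma1, from -0.11 to 0.033 for Psma4, from -0.12 to 0.0013 for Psma7, from -0.16 to 0.10 for Psmb10, from -0.14 to 0.21 for Psmb8, from -0.23 to 0.12 for Psmb9, from -0.28 to 0.037 for Psmc3, from -0.12 to 0.11 for Psmc4, from -0.16 to 0.029 for Psmc5, from -0.22 to 0.23 for Psmd10, from -0.25 to 0.13 for Psmd12, from -0.14 to 0.031 for Psmd2, from -0.18 to 0.085 for Psmd3, from -0.097 to 0.042 for Psmd4, from -0.19 to 0.17 for Psmd7, from -0.14 to 0.062 for Psmd8. For the difference between the sets it ran from -0.50 to 0.27 for Psma1, from -0.090 to 0.27 for Psmb8, from -0.41 to 0.50 for Psmb9, from -0.14 to 0.049 for Psmc2, from -0.027 to 0.44 for Psmd10, from -0.28 to 0.12 for Psmd12, from -0.14 to 0.030 for Psmd2, from -0.085 to 0.17 for Psmd3, from -0.27 to 0.080 for Psmd7. At this depth the largest log2 standard errors of the subunit genes within a set were 0.79 for Psmb9 in the first set and 1.79 for Psma8 in the 3M set, and counting error was not separated from library spread.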
